A study of Rattus norvegicus with 16 samples.

Results

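The genes described here are 34 that mark astrocytes or the reactive state of astrocytes, measured in dorsal hippocampal CA1 of young rats. They were taken by symbol from a deposited table of 21698 transcript isoforms. Of the 34 symbols, 32 had rows, with 50 isoforms in all. Slc1a2, the main astrocytic glutamate carrier, and Serpina3n, a secreted protease inhibitor, had no row under these symbols and were not analysed here. The 32 genes were 15 that mark astrocyte identity and function and 17 that mark reactive astrocytes, and 14 of them had several isoforms.

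The kainate group held 8 male Sprague-Dawley rats injected subcutaneously on postnatal day 7 with kainate, a drug that activates glutamate receptors and causes seizures, at 2 mg/kg. The control group held 8 male Sprague-Dawley rats given saline on the same day. All 16 rats were killed on postnatal day 14, 7 days after the injection, so the comparison asks what was left of a seizure episode a week later. No transgene or other treatment was named in the labels. CA1 was cut out of parasagittal slices of 400 µm after a recovery of 60 min in oxygenated solution, during which cortex and dentate gyrus were still attached, and its RNA was sequenced without sorting cells. The sample titles carry separate animal numbers, which is the sole sign that libraries came from different rats, and p-values measure the spread between these libraries.

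Astrocytes clear glutamate and potassium after neuronal firing, convert glutamate into glutamine, move water and bicarbonate across their membranes and are coupled to each other by gap junctions. After injury, inflammation or seizures they can turn reactive: intermediate filament genes such as Gfap and Vim go up, partly through cytokine receptors of the gp130 family and STAT3, and secreted proteins such as lipocalin 2 appear. In mouse, separate gene lists have been drawn up for astrocytes after inflammation (among them C3, Serping1 and Gbp2) and after ischaemia (among them Emp1, Tgm1 and Ptx3). In the rat hippocampus the second postnatal week is a time when astrocytes are still maturing.

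Values are on the authors' log2 scale, which was normalized between animals before deposit. The level of a gene is the log2 of the sum of its isoforms' values, given for 16579 symbols. Values are not divided by transcript length, so levels are not compared between genes. The depth of each library is unknown. In the authors' deposited table the summed mean normalized count of the 15 identity genes lay between 734 for Gjb6 and 74203 for Glul, and that of the 17 reactive genes between 27.6 for Tgm1 and 4742 for Vim. The defining astrocyte markers that had rows, Gfap, Aqp4, Slc1a3, Aldh1l1 and Sox9, were therefore all present in the tissue. The libraries numbered 1 to 4 in the sample titles stood apart from those numbered 5 to 8 in both groups along the first principal component, which held 45.3% of the variance. This cut was chosen from these data, each of its sets holds 4 kainate and 4 control libraries, and the labels name no batch. In a bulk sample, fewer astrocytes and less RNA per astrocyte cannot be told apart.

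None of the 32 astrocyte genes differed between kainate and control rats at an adjusted p under 0.05 (limma, Benjamini-Hochberg over all genes), and over all 16579 genes the share that passed was 0%. The adjusted p was 1.00 for every one of the 32. At an unadjusted p under 0.05 the count was 0 of 32, beside 1.39% of all genes. This main fit had no term for the replicate sets, so the gap between them counted as spread. With such a term in limma, 5.08% of all genes had an unadjusted p under 0.05, among them Slc4a4 and Vim. The mean was higher after kainate for 15 astrocyte genes and lower for 17 (53.1%), where 47.6% of all genes were higher and 52.4% were lower. In none of the 32 were the 8 kainate libraries clear of the 8 control libraries, and such a gap occurred in 0% of all genes.

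The intervals show how large a difference these libraries leave room for in the main fit, which had no term for the replicate sets. The SE of Slc4a4 was 0.118 in that fit and 0.047 with such a term, so its interval in part measures the gap between the sets. Over the 32 genes the 95% confidence limits of the fold, kainate over control, stayed between 0.836, the lower limit for Vim, and 1.28, the upper limit for Slc4a4. The half-width of the interval ran from 0.036 for Tgm1 to 0.25 for Slc4a4 on the log2 scale. Vim, Slc4a4 and C3 were the 3 astrocyte genes whose mean difference was larger than 0.1, a size reached by 3.14% of all genes. These folds are on the deposited scale, which compresses the differences of weak genes such as Tgm1, Osmr and Cxcl10, so their intervals understate what the RNA itself may have done. The authors' log2 fold change was also larger in size for some strong genes, at -0.100 for S100b, beside -0.076 here, and 0.052 for Gja1, beside 0.040. For others it was smaller, as for Lcn2, at 0.066 beside 0.070. The intervals of all 32 genes thus hold for the deposited scale alone.

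**Figure D1:**
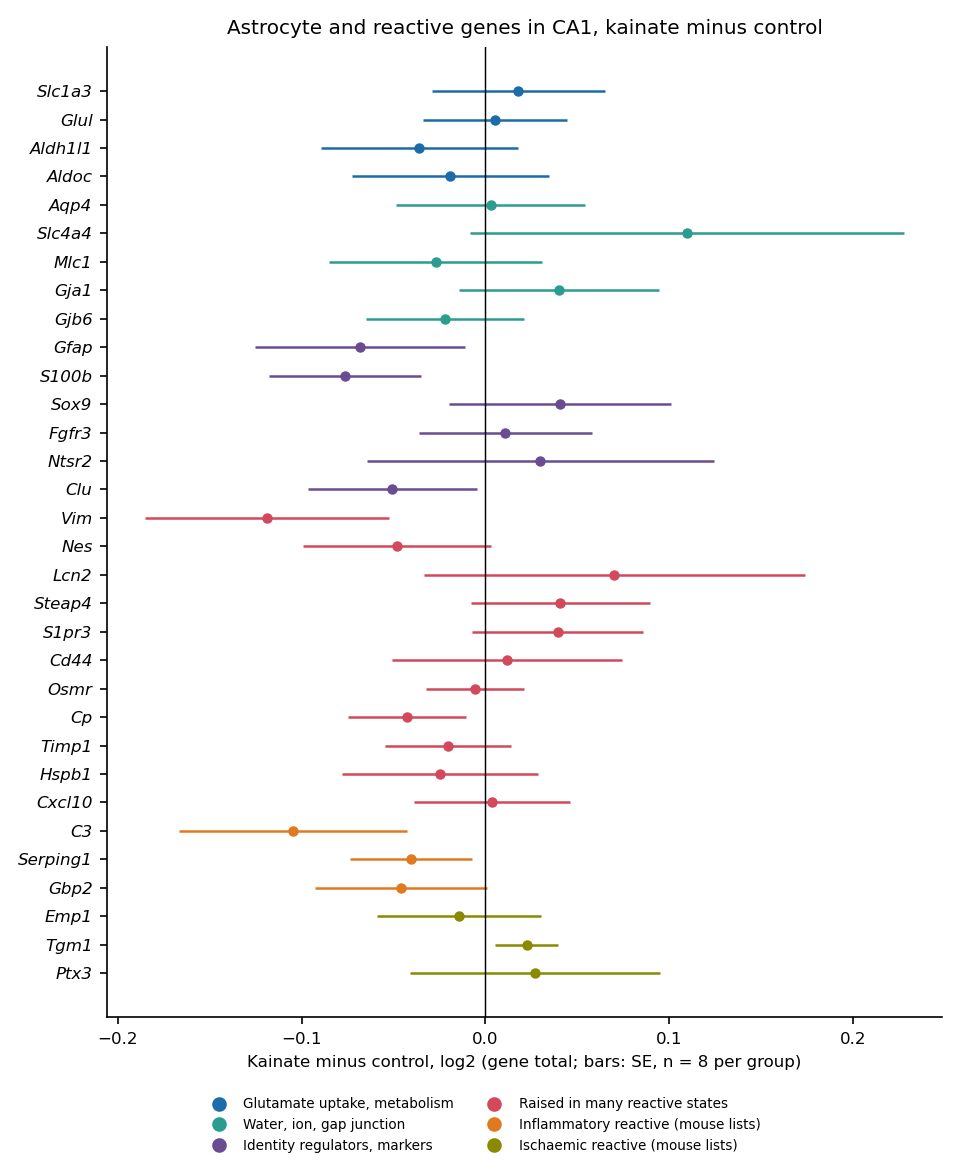
Difference of the mean log2 gene level, kainate minus control (horizontal axis), for the 32 astrocyte genes, coloured by role; bars are standard errors from limma with 8 libraries per group. The differences lie on both sides of 0, from -0.12 for Vim to 0.11 for Slc4a4, and none passed an adjusted p of 0.05.

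Genes of glutamate uptake and metabolism had differences between -0.04 and 0.02 on the log2 scale. Slc1a3, the glutamate carrier GLAST, had a lowest log2 level of 15.76, a median of 15.86 and a highest of 15.91 in kainate rats, against 15.70, 15.79 and 16.03 in control rats. The kainate libraries lay inside the control range, which was the wider. The difference was 0.02 ± 0.047 (SE, n = 8 per group; limma adjusted p = 1.00), and the 95% interval of the fold ran from 0.945 to 1.08. Glul, glutamine synthetase, which turns glutamate into glutamine, averaged 16.18 ± 0.076 in kainate rats and 16.17 ± 0.066 in control rats on the log2 scale (SD, n = 8). Aldh1l1, a folate enzyme used as a pan-astrocyte marker, averaged 10.36 ± 0.12 after kainate and 10.39 ± 0.11 in control rats (log2 level, SD, n = 8). Aldoc, the brain form of the glycolytic enzyme aldolase, averaged 14.83 ± 0.11 after kainate and 14.85 ± 0.10 in control rats (log2 level, SD, n = 8).

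Among the water, ion and gap junction proteins, Slc4a4 stood out for its spread. Aqp4, the water channel of astrocyte endfeet, had log2 levels of 15.77, 15.83 and 15.97 (lowest, median and highest) in kainate rats, against 15.68, 15.83 and 16.09 in control rats. The groups overlapped fully for Aqp4, with the highest and the lowest library both from the control group. The difference for Aqp4 was 0.003 ± 0.052 (SE, n = 8 per group; limma adjusted p = 1.00). Slc4a4, the sodium bicarbonate cotransporter NBCe1, had log2 levels of 12.20, 12.50 and 12.68 in kainate rats, against 11.97, 12.31 and 12.79 in control rats. Its kainate libraries all lay within the control range, and it had the largest pooled SD of the 32 genes, 0.26. The difference was 0.11 ± 0.12 (SE, n = 8 per group; limma adjusted p = 1.00), and the kainate library was the higher at 6 of 8 replicate numbers.

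Gja1, the gap junction protein connexin 43, had log2 levels of 14.14, 14.23 and 14.38 in kainate rats, against 14.07, 14.18 and 14.41 in control rats. The groups overlapped for Gja1, whose difference was 0.04 ± 0.054 (SE, n = 8 per group; limma adjusted p = 1.00). Its partner Gjb6, connexin 30, averaged 9.50 ± 0.085 after kainate and 9.52 ± 0.087 in control rats (log2 level, SD, n = 8). Mlc1, a membrane protein of endfeet whose loss causes a leukodystrophy in humans, had log2 levels of 13.92, 14.14 and 14.24 in kainate rats, against 13.93, 14.17 and 14.29 in control rats. The ranges of Mlc1 nearly coincided, and the difference was -0.03 ± 0.058 (SE, n = 8 per group; limma adjusted p = 1.00).

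Of the identity regulators, receptors and other markers, Gfap and S100b both had lower means after kainate, without passing the test. Gfap, the intermediate filament protein of astrocytes, had log2 levels of 15.23, 15.54 and 15.74 in kainate rats, against 15.45, 15.60 and 15.67 in control rats. Kainate rats held both the lowest Gfap library, replicate 3, and the highest, replicate 5, so the control range lay inside theirs. The difference was -0.07 ± 0.057 (SE, n = 8 per group; limma adjusted p = 1.00), a fold of 0.954 with a 95% interval from 0.878 to 1.04. The kainate library was the higher of the pair at 2 of 8 replicate numbers.

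S100b, a calcium-binding protein of astrocytes that oligodendrocytes also make, had log2 levels of 14.72, 14.82 and 14.97 in kainate rats, against 14.86, 14.89 and 15.04 in control rats. Most kainate libraries lay below the lowest control library, while a few reached into the control range. The difference was -0.08 ± 0.041 (SE, n = 8 per group; limma adjusted p = 1.00), and the fold was 0.949 with a 95% interval from 0.893 to 1.01. S100b was the only one of the 32 to lie the same way in at least 7 of 8 same-numbered pairs, lower after kainate in 7 of them, where 10.1% of all genes reached that count. No astrocyte gene lay the same way in 8 of 8 pairs, as 0.929% of all genes did. Sox9, a transcription factor that specifies the glial lineage, differed by 0.04 ± 0.060, and Fgfr3, a growth factor receptor of astrocyte precursors and astrocytes, by 0.01 ± 0.047 (log2 difference, SE, n = 8 per group). Ntsr2, a neurotensin receptor found on astrocytes, differed by 0.03 ± 0.094 (log2 difference, SE, n = 8 per group). Clu, the secreted chaperone clusterin, which some neurons also make, differed by -0.05 ± 0.046 (log2 difference, SE, n = 8 per group).

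The 11 measured genes raised in many kinds of reactive astrocyte split into 5 with a higher mean and 6 with a lower mean after kainate, and the median of their differences was -0.0054, beside -0.0017 for all genes. Vim, the filament protein vimentin, which vessel and ependymal cells also make, had log2 levels of 11.82, 12.14 and 12.32 in kainate rats, against 12.09, 12.28 and 12.43 in control rats. Kainate replicate 3 was the lowest of all 16 libraries for Vim and control replicate 2 the highest, with overlap between them. The difference was -0.12 ± 0.066 (SE, n = 8 per group; limma adjusted p = 1.00), a fold of 0.921 with a 95% interval from 0.836 to 1.01. Nes, the filament protein nestin of immature and reactive glia, differed by -0.05 ± 0.051 (log2 difference, SE, n = 8 per group).

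Lcn2, the secreted iron-siderophore binder lipocalin 2, averaged 6.91 ± 0.26 after kainate and 6.84 ± 0.18 in control rats (log2 level, SD, n = 8). Its spread was the second of the 32, and the difference was 0.07 ± 0.10 (SE, n = 8 per group). Steap4, a metalloreductase, and S1pr3, a receptor for the lipid sphingosine 1-phosphate, each differed by 0.04 with SEs of 0.049 and 0.047 (log2 difference, n = 8 per group). Cd44, the hyaluronan receptor, differed by 0.01 ± 0.063, and Osmr, a receptor chain for oncostatin M, by -0.01 ± 0.027 (log2 difference, SE, n = 8 per group). Cp, the copper-binding ferroxidase ceruloplasmin, differed by -0.04 ± 0.032 and Timp1, an inhibitor of matrix metalloproteinases, by -0.02 ± 0.034 (log2 difference, SE, n = 8 per group). Hspb1, a small heat shock protein, differed by -0.02 ± 0.053 and Cxcl10, an interferon-induced chemokine, by 0.0038 ± 0.042 (log2 difference, SE, n = 8 per group).

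All 3 genes of the mouse inflammatory list had lower means after kainate, and 2 of the 3 of the mouse ischaemic list had higher means, in no case past the test. C3, the central complement component, which microglia also make, had log2 levels of 6.88, 7.22 and 7.45 in kainate rats, against 7.17, 7.32 and 7.52 in control rats. Kainate replicate 1 lay well below every other library for C3, and the remaining libraries of the groups overlapped. The difference was -0.10 ± 0.062 (SE, n = 8 per group; limma adjusted p = 1.00). Serping1, the complement C1 inhibitor, differed by -0.04 ± 0.033, and Gbp2, an interferon-induced GTPase, by -0.05 ± 0.047 (log2 difference, SE, n = 8 per group).

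Tgm1, a transglutaminase, had log2 levels of 4.74, 4.78 and 4.87 in kainate rats, against 4.71, 4.76 and 4.81 in control rats. The groups overlapped for Tgm1, with kainate replicate 1 the highest of all 16 libraries and control replicate 7 the lowest. The mean normalized count of Tgm1 in the authors' deposited table was 27.6, the lowest of the 32. The difference was 0.02 ± 0.017 (SE, n = 8 per group; limma adjusted p = 1.00). Emp1, an epithelial membrane protein, differed by -0.01 ± 0.045 and Ptx3, the secreted pattern recognition protein pentraxin 3, by 0.03 ± 0.068 (log2 difference, SE, n = 8 per group).

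**Figure D2:**
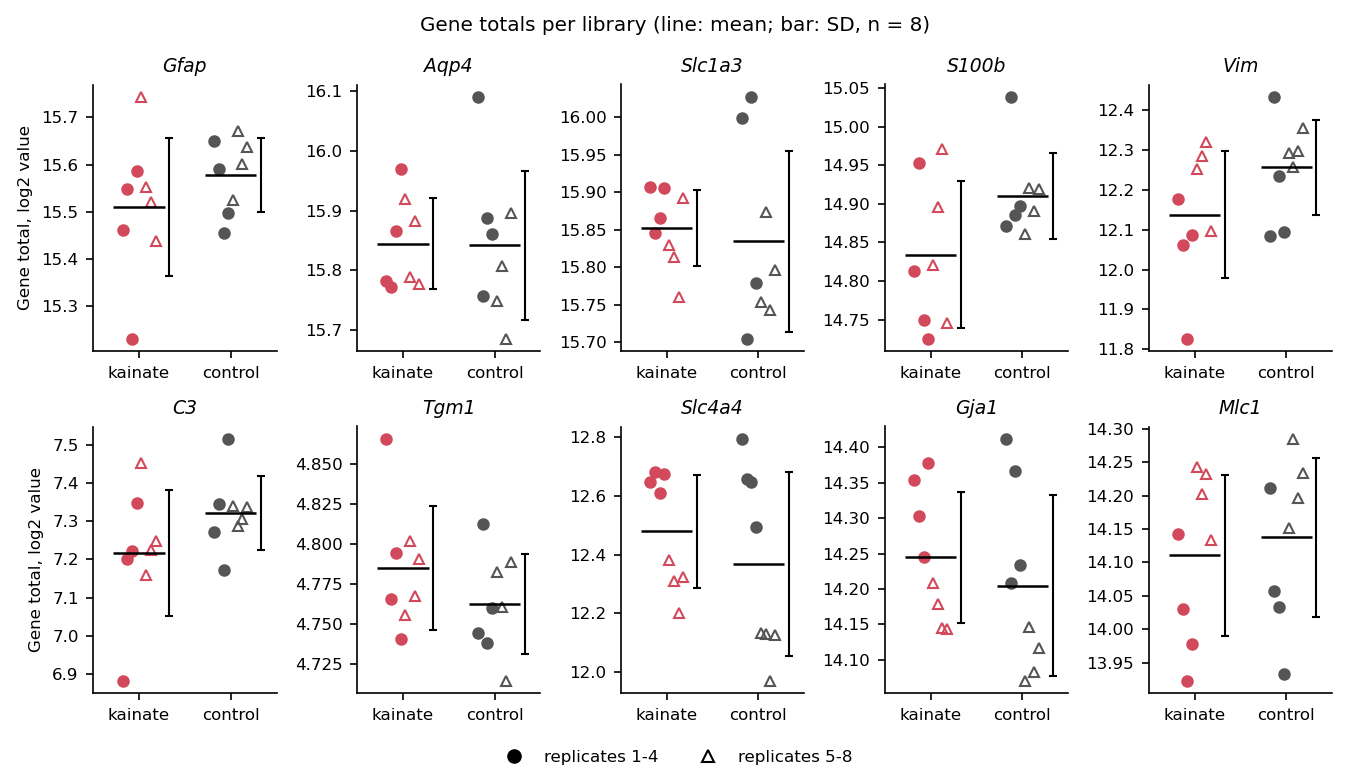
Log2 gene level (vertical axis) in each of the 8 kainate and 8 control libraries for the astrocyte genes described library by library, with filled circles for replicates 1 to 4, open triangles for replicates 5 to 8, a line for the mean and a bar for the SD. Kainate and control overlap in every panel, while for Slc4a4 the circles lie above the triangles in both groups.

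The genes given library by library have these positions in the authors' deposited table, as chromosome and start of the gene: 10 and 90990762 for Gfap, 18 and 6765945 for Aqp4, 2 and 57860834 for Slc1a3, 20 and 13130636 for S100b, and 17 and 80882666 for Vim. They are 9 and 9721105 for C3, 15 and 34378148 for Tgm1, 14 and 20479323 for Slc4a4, 20 and 37876650 for Gja1, and 7 and 129949967 for Mlc1. The sources used here name no genome build for them.

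Same-numbered libraries of the kainate and control groups deviated together, with r from 0.127 to 0.781, but much of this went with the split between the replicate sets. With that split removed, r was lower for every number and ran from -0.349 to 0.667, negative for replicates 1 and 8. No label says that same-numbered rats were matched. A fit with the replicate number as a block gave smaller errors for most of the 32 genes. With the replicate block, 3 of the 32 genes had an unadjusted p under 0.05, beside 6.6% of all genes, and none had an adjusted p under 0.05, beside 0%. Of these, Slc4a4 was higher after kainate (0.11 ± 0.044), and S100b (-0.08 ± 0.032) and C3 (-0.10 ± 0.045) were lower (log2 difference, SE, n = 8 same-numbered pairs). Their adjusted p in the limma fit with the block was 0.751. With a term for the 2 replicate sets in place of the block, Slc4a4 and Vim had an unadjusted p under 0.05, beside 5.08% of all genes, and the adjusted p of both was 0.947.

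Slc4a4 was also the gene of the 32 that differed most between the replicate sets. Its log2 level averaged 12.65 ± 0.083 in replicates 1 to 4 and 12.20 ± 0.14 in replicates 5 to 8 (SD, n = 8 libraries each), a gap of 0.45, and the sets did not overlap. Such a gap between the sets occurred in 10.7% of all genes and in 1 of the 32. In replicates 5 to 8 the Slc4a4 level lay between 12.20 and 12.38 in the 4 kainate libraries, against 11.97 to 12.13 in the 4 control libraries, without overlap. In replicates 1 to 4 the Slc4a4 level lay between 12.61 and 12.68 in the kainate libraries, against 12.49 to 12.79 in the control libraries. The difference was 0.22 ± 0.050 (SE, limma adjusted p = 0.723) in replicates 5 to 8 and 0.0044 ± 0.060 (SE, limma adjusted p = 1.00) in replicates 1 to 4. The limma test of the difference between these 2 values gave an adjusted p of 1.00. Slc4a4 was the 1 gene of the 32 with an unadjusted p under 0.05 in that test, beside 1.73% of all genes, and the 1 of the 32 with an unadjusted p under 0.05 within replicates 5 to 8, beside 5.1%. An adjusted p under 0.05 occurred in 0% of all genes in both.

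Clu was the only other astrocyte gene whose groups were clear of each other within a set. In replicates 5 to 8 its log2 level lay between 15.03 and 15.12 in the kainate libraries, against 15.14 to 15.22 in the control libraries. Within that set, group ranges that did not overlap occurred in 2 of the 32, beside 2.46% of all genes, and within replicates 1 to 4 in 0 of the 32, beside 1.69%. The Clu difference of -0.07 ± 0.036 (SE) within replicates 5 to 8 had a limma adjusted p of 0.723. Of the 32 genes, 11 had differences of opposite sign in the 2 sets, beside 43.9% of all genes. Gfap, S100b, Vim and C3 each had a lower mean after kainate in both sets, with log2 differences of -0.09 in replicates 1 to 4 and -0.04 in replicates 5 to 8 for Gfap, -0.11 and -0.04 for S100b, -0.18 and -0.06 for Vim, and -0.16 and -0.05 for C3. Of the other genes given library by library, Mlc1 was lower in both sets. Slc1a3, Slc4a4, Gja1 and Tgm1 were higher in both, and Aqp4 differed in sign between them.

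Between the sets themselves, 6 astrocyte genes differed by more than 0.1 on the log2 scale, as did 37% of all genes, and 19 were higher and 13 lower in replicates 1 to 4. After Slc4a4 came Gja1, with 14.31 ± 0.076 in replicates 1 to 4 and 14.14 ± 0.046 in replicates 5 to 8, and Mlc1, with 14.04 ± 0.10 in replicates 1 to 4 and 14.21 ± 0.050 in replicates 5 to 8 (log2 level, SD, n = 8 libraries each). Gja1 thus followed Slc4a4, and Mlc1 lay the other way. Clu (-0.15), Vim (-0.15) and Aldh1l1 (0.10) were the other 3, given as the log2 level in replicates 1 to 4 minus that in replicates 5 to 8. These gaps exceed the kainate differences of the same genes in size, and what set the replicate sets apart was not tested.

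The highest kainate library and the highest control library had the same number in 6 of the 32 genes (18.8%), beside 28.2% of all genes. The lowest libraries had the same number in 6 of the 32 (18.8%), beside 24.1% of all genes, so such pairs were no more common here than elsewhere. Replicate 2 was the highest in both groups for Gjb6, Fgfr3, Ntsr2 and S1pr3. For Ntsr2 the kainate libraries of replicates 1, 2 and 3 had log2 levels of 11.55, 11.58 and 10.99, against 11.48, 11.68 and 11.12 in the control libraries of the same numbers. Replicates 1 and 2 were thus high, and replicate 3 was low, with and without kainate. Gfap was lowest in replicate 3 of both groups, at 15.23 in the kainate library and 15.45 in the control library.

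**Figure D3:**
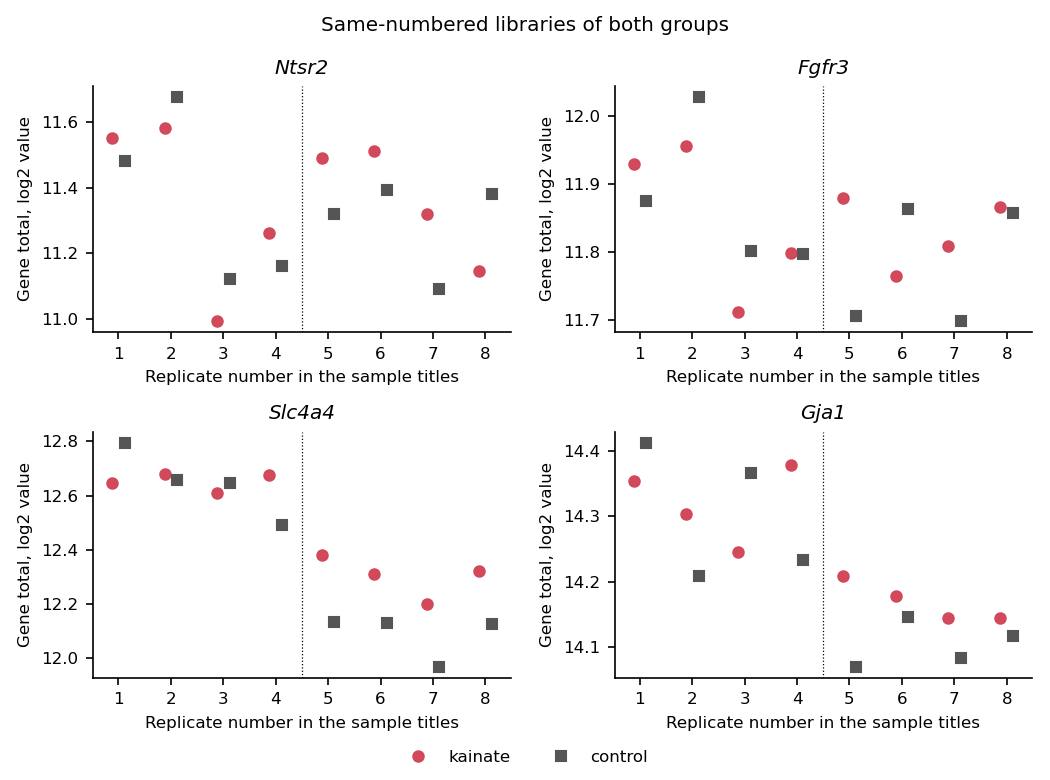
Log2 gene level (vertical axis) against the replicate number of the sample titles (horizontal axis) for 4 astrocyte genes, kainate and control libraries side by side at each number and a dotted line between replicates 4 and 5. For Slc4a4 both groups are high in replicates 1 to 4, and in replicates 5 to 8 the kainate library of each number lies above the control library.

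At the isoform level, none of the 50 isoforms had an adjusted p under 0.05 (limma over 21698 isoforms, 0% of all isoforms), and 0 of 50 had an unadjusted p under 0.05, beside 1.5% of all isoforms. With the replicate block, 3 of 50 had an unadjusted p under 0.05, beside 6.13%, made up of 1 isoform each of Slc1a3, Slc4a4 and S100b. In no isoform were kainate and control libraries clear of each other, beside 0% of all isoforms. At least 7 of 8 same-numbered pairs lay the same way in 5 of 50, beside 9.46%, and these belonged to Slc1a3, Aqp4, Slc4a4 (both isoforms) and S100b.

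Slc1a3 had 4 isoforms, and 97.9% of its mean normalized count lay in ENSRNOT00000022319, whose difference was 0.02 ± 0.048 (log2, SE, n = 8 per group). The minor isoform ENSRNOT00000085599, with 0.828% of the count, had log2 levels of 8.50, 8.79 and 9.43 in kainate rats, against 8.13, 8.53 and 9.40 in control rats. Kainate lay above control in 7 of the 8 same-numbered pairs, although the ranges of the groups overlapped. The difference was 0.20 ± 0.18 (SE, n = 8 per group; limma adjusted p = 1.00, and adjusted p = 0.797 with the replicate block). The other 2, ENSRNOT00000035821 and ENSRNOT00000077790, differed by -0.07 ± 0.098 and -0.05 ± 0.11 (log2 difference, SE, n = 8 per group).

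Aqp4 also had 4 isoforms, with 71.5% of the count in ENSRNOT00000068150, 20.7% in ENSRNOT00000077606, 5.04% in ENSRNOT00000048109 and 2.8% in ENSRNOT00000090320. The first 3 differed by 0.03 ± 0.047, -0.07 ± 0.096 and 0.03 ± 0.11 (log2 difference, SE, n = 8 per group). ENSRNOT00000090320 had log2 levels of 10.42, 10.59 and 10.98 in kainate rats, against 10.54, 10.77 and 11.00 in control rats. It was lower after kainate in 7 of 8 same-numbered pairs, with overlap of the ranges. The difference was -0.14 ± 0.077 (SE, n = 8 per group; limma adjusted p = 1.00), and its unadjusted p was the smallest among isoforms of genes with several isoforms.

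Both isoforms of Slc4a4 lay higher after kainate in 7 of 8 pairs, by 0.08 ± 0.11 for ENSRNOT00000004391, which held 63% of the count, and by 0.16 ± 0.16 for ENSRNOT00000033806, which held 37% (log2 difference, SE, n = 8 per group). With the replicate block the limma adjusted p was 0.851 for ENSRNOT00000004391 and 0.797 for ENSRNOT00000033806. Both were also clear of overlap between the replicate sets, as was a weak isoform of C3, ENSRNOT00000075494, and this occurred in 9.83% of all isoforms. That C3 isoform sat at its floor in most libraries, with a median log2 value of 3.08 after kainate and 3.08 in control rats.

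Isoforms of Cp differed in opposite directions, by -0.08 ± 0.045 for ENSRNOT00000082627, with 72.8% of the count, and by 0.05 ± 0.031 for ENSRNOT00000016083, with 27.2% (log2 difference, SE, n = 8 per group). The test of isoform usage, limma's diffSplice, gave Cp the smallest p of the 14 genes with several isoforms, with an adjusted p of 1.00 over 3761 genes. Cp was the 1 of 14 at an unadjusted p under 0.05, beside 2.34% of all genes tested for usage, and at an adjusted p under 0.05 the counts were 0 of 14 and 0% of all. With the replicate block, usage had an unadjusted p under 0.05 for Clu (limma adjusted p = 0.638) and C3 (limma adjusted p = 0.650) of the 14, beside 6.81% of all genes tested for usage. In both, the minor isoform was weak, with a mean normalized count of 7.87 for Clu and 11.9 for C3 in the authors' deposited table. The usage test thus set the leading isoform against compressed values.

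In the remaining genes with several isoforms the differences lay between -0.12 for the leading isoform of C3, ENSRNOT00000073042, and 0.09 for the weak isoform ENSRNOT00000086036 of Aldoc. In Aldh1l1, Aldoc, Gjb6, Clu, S1pr3, C3 and Emp1 the 2 isoforms had differences of opposite sign, each smaller than its SE except for both isoforms of Clu and the leading isoform of C3, and in Fgfr3, Nes and Cd44 they had the same sign. Clu had all but 0.023% of its count in ENSRNOT00000022095, so its gene level is that isoform's.

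**Figure D4:**
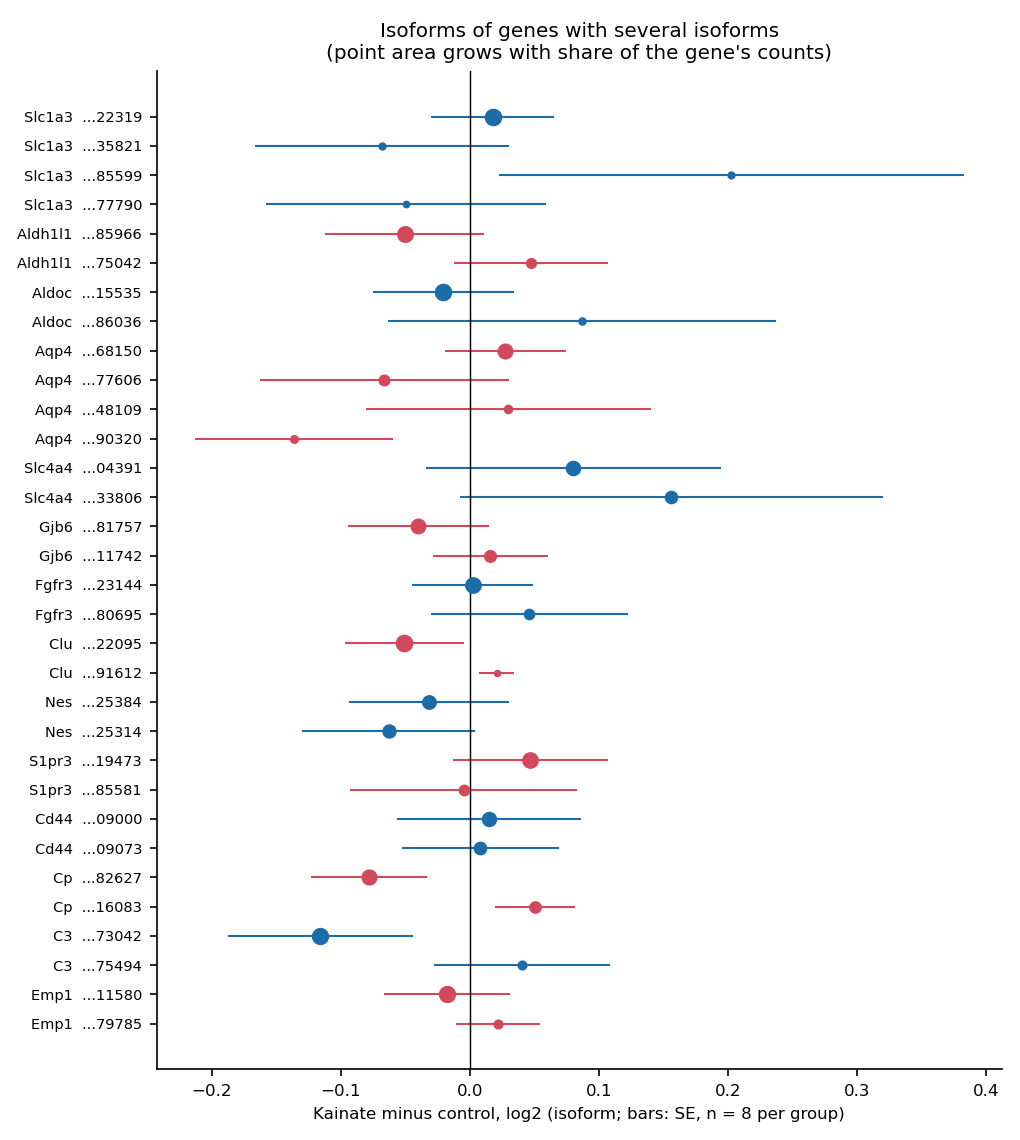
Difference of the mean log2 isoform value, kainate minus control (horizontal axis), for the isoforms of the 14 astrocyte genes with several isoforms, named by gene and the last digits of the transcript identifier; bars are standard errors (n = 8 per group) and point area grows with the isoform's share of the gene's count. The largest difference is 0.20 for a Slc1a3 isoform with 0.828% of that gene's count, whose bar is also the longest.

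The authors' deposited table gives its own test for each isoform. In it, 0 of the 43 astrocyte isoforms with an adjusted p passed 0.05, beside 0.042% of all isoforms, and the lowest adjusted p among them was 0.551. At an unadjusted p under 0.05 the authors' deposited table has 4 of the 50 astrocyte isoforms, or 8%, beside 5.66% of all isoforms. Slc4a4 ENSRNOT00000033806 and Slc1a3 ENSRNOT00000085599 were higher after kainate there, each with a log2 fold change of 0.17 in the authors' deposited table (p = 0.0104 and p = 0.0151). S100b ENSRNOT00000001743 and Aqp4 ENSRNOT00000090320 were lower, with log2 fold changes of -0.10 (p = 0.0146) and -0.14 (p = 0.0487) in the authors' deposited table. These are the isoforms, apart from that of Aqp4, that also had an unadjusted p under 0.05 in the blocked limma fit, which rests on the same libraries.

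Astrocyte and reactive genes outside the 32 gave a similar spread of signs. Of 32 other astrocyte genes, 14 had a higher and 18 a lower mean after kainate, with a median log2 difference of -0.0026, and 0 passed an adjusted p of 0.05 in limma. The 3 with the smallest p were Ppp1r3c, a glycogen-targeting phosphatase subunit (-0.07 ± 0.041), Pla2g7, a phospholipase that inactivates platelet-activating factor (-0.08 ± 0.058), and Nfib, a transcription factor of gliogenesis (0.13 ± 0.10) (log2 difference, SE, n = 8 per group). Nfib, like Slc4a4, was higher in replicates 1 to 4, by 0.40, and its limma adjusted p was 1.00 without and 0.751 with the replicate block.

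Of 21 other reactive genes, 11 had a higher and 10 a lower mean after kainate, with a median difference of 0.0013, and 0 passed an adjusted p of 0.05 in limma. Cd109, a surface protein that binds TGF-beta, had log2 levels of 6.85, 6.98 and 7.05 in kainate rats, against 6.95, 7.04 and 7.08 in control rats. It was the lower after kainate in 8 of 8 same-numbered pairs, with overlap of the group ranges, and its difference was -0.07 ± 0.029 (SE, n = 8 per group; limma adjusted p = 1.00). Slc10a6, a sulphated steroid carrier, differed by 0.02 ± 0.013 and Ptgs2, the prostaglandin-forming enzyme COX-2, which neurons also make, by 0.08 ± 0.057 (log2 difference, SE, n = 8 per group). Of 14 measured genes of JAK-STAT3 signalling, which drives filament genes in reactive astrocytes, 9 had a higher and 5 a lower mean, with a median of 0.013. The smallest p in this list belonged to Il6r, a receptor for interleukin 6 (-0.07 ± 0.038), followed by Cntf, a gp130 cytokine (0.02 ± 0.023) (log2 difference, SE, n = 8 per group).

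Markers of other cell types in the dissected tissue had no gene with an adjusted p under 0.05 in limma, in any list, with or without the replicate block. At an unadjusted p under 0.05 with the block, 4 of 10 myelinating oligodendrocyte markers and 3 of 11 microglia markers were lower. So were 3 of 8 choroid plexus and ependymal, 1 of 6 precursor and 2 of 7 meningeal markers. Of the neuron and vessel markers 0 were, beside 6.6% of all genes in either direction. With the set term the counts were 1, 1, 4, 1 and 1 in the same order, beside 5.08%. Genes of a list are not independent results. All 10 markers of myelinating oligodendrocytes had a lower mean after kainate, with a median difference of -0.12 beside -0.0017 for all genes. All 10 also had a higher mean in replicates 1 to 4 than in replicates 5 to 8, so their shared signs are not 10 independent results. The summed log2 level of these markers ran from 17.76 to 18.22 in kainate rats, against 17.88 to 18.30 in control rats, with overlap. The 3 with the smallest p were Cnp, a myelin phosphodiesterase (-0.12 ± 0.050), Cldn11, a tight junction protein of myelin (-0.14 ± 0.070), and Mbp, myelin basic protein (-0.14 ± 0.070) (log2 difference, SE, n = 8 per group). S100b, also made by oligodendrocytes, lay the same way, and the part of these cells in its value was not tested.

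Of 11 measured microglia markers, 9 had a lower mean after kainate, with a median of -0.029 and a summed log2 level from 14.23 to 14.44 in kainate rats, against 14.23 to 14.54 in control rats. Ctss, a lysosomal protease, differed by -0.09 ± 0.040, Aif1, the actin-binding protein IBA1, by -0.08 ± 0.066, and C1qc, a complement C1q chain, by -0.07 ± 0.076 (log2 difference, SE, n = 8 per group). C3 lay the same way, and the part of microglia in its value was not tested. Of 8 measured choroid plexus and ependymal markers, 6 had a lower mean, with a median of -0.071 and a summed log2 level from 10.64 to 11.06 in kainate rats, against 10.69 to 11.11 in control rats. Ccdc153, a gene of ciliated cells, differed by -0.26 ± 0.11, Tmem212, another, by -0.12 ± 0.058, and Folr1, a folate receptor of choroid plexus, by -0.13 ± 0.066 (log2 difference, SE, n = 8 per group). Vim, which ependymal and vessel cells also make, had a lower mean too, while 7 of 10 measured vessel markers had a higher mean, and the part of either cell type in its value was not tested. The lowest mean log2 level among the markers measured in these 3 lists was 2.19, in the choroid plexus and ependymal list. Each isoform has its own floor on this scale, so such a level does not show that a marker was detected.

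Neuron, vessel, precursor and meningeal markers had medians nearer to that of all genes. Of 11 neuron markers 8 had a higher mean after kainate, with a median of 0.019, led by Rbfox3 (NeuN, 0.07 ± 0.041), Camk2a (0.08 ± 0.077) and Map2 (0.07 ± 0.073), genes of neuronal nuclei, synapses and dendrites (log2 difference, SE, n = 8 per group). Of 10 measured vessel markers 7 were higher, with a median of 0.0091, and Flt1 (0.09 ± 0.063), Rgs5 (0.05 ± 0.060) and Tek (-0.03 ± 0.047) had the smallest p. Of 6 oligodendrocyte precursor markers 3 were higher and 3 lower, with a median of -0.013, and Neu4 (-0.05 ± 0.052), Olig2 (-0.04 ± 0.044) and Olig1 (-0.09 ± 0.088) had the smallest p. Of 7 measured meningeal markers 4 were higher and 3 lower, with a median of 0.0015, and Ptgds (-0.08 ± 0.038), Dcn (-0.13 ± 0.092) and Ogn (-0.03 ± 0.044) had the smallest p. The values of these vessel, precursor and meningeal genes are log2 differences with SEs (n = 8 per group), and none had a limma adjusted p under 0.05.

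**Figure D5:**
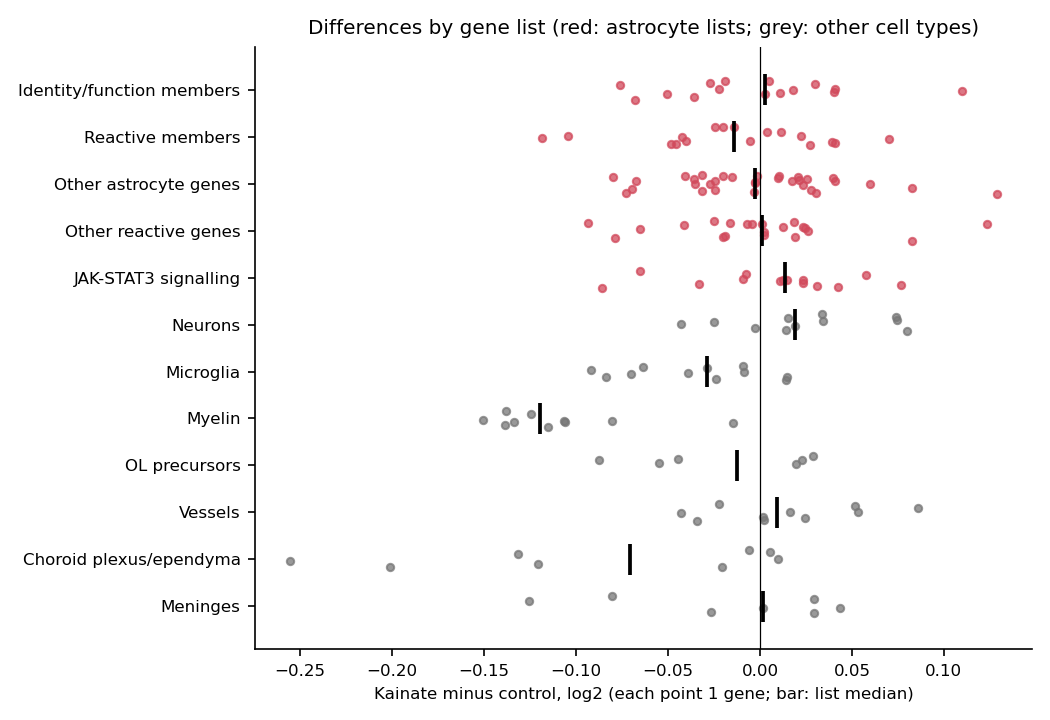
Log2 difference of each gene, kainate minus control (horizontal axis), for lists of astrocyte genes (red) and of genes of other cell types (grey), 1 point per gene and a bar at the list's median. The medians of the astrocyte lists lie close to 0, and the points of the myelin list all lie to the left of 0, with a median of -0.12.

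Genes whose levels followed Gfap over the 16 libraries were ranked by Pearson's r after the means of each group and replicate set had been removed. Outside the 32, the 5 closest were Rhcg (r = 0.879), an ammonia channel, Ldlrad3 (r = 0.872), a membrane protein with LDL receptor repeats, Plod1 (r = 0.864), a collagen lysyl hydroxylase, Efemp1 (r = 0.852), an extracellular matrix protein, and Aebp1 (r = 0.848), a collagen-binding protein. Rhcg was weak, with a mean normalized count of 18.5, below that of every one of the 32, so its values are compressed. Among the 32, Clu came closest (r = 0.759), followed by Serping1 (r = 0.714), Ntsr2 (r = 0.677) and Cd44 (r = 0.658), and Hspb1 lay farthest in the other direction (r = -0.571). These values describe 16 libraries that share their dissection and normalization and were picked as the highest of many, so they carry no test.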

How the data were processed

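Total RNA of CA1 from 16 rats was sequenced from standard Illumina libraries, per the labels' protocols. The submitters' processing notes name the tools Trim Galore, RSEM, DESeq2, SAMtools and GATK with no version. Which aligner, build and annotation were used is not given in the sources. The authors deposited 1 table of isoforms with a log2 value per animal. From the values, each isoform has its own floor, as a regularized logarithm gives, so differences of weak isoforms are compressed. The transform is not named. The same deposited table holds a signal, the normalized count of each isoform averaged over animals, the authors' log2 fold change, ratio and Wald score, and their p-value and adjusted p-value, per the file headers. Their adjusted p is empty for some weak isoforms.

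Gene levels were the log2 of the summed 2-power isoform values of a symbol. 51 isoforms whose names a spreadsheet had turned into dates were left out of them. The isoform fits kept all rows. limma 3.58.1 in R 4.3.3 (linear model, mean-variance trend, robust empirical Bayes) was applied to all genes and all isoforms as deposited, with no filter and no added constant, and its diffSplice (Simes) to isoform usage. P-values were two-sided and adjusted after Benjamini and Hochberg, with 0.05 as the threshold. The depth is unknown, so no counting interval is given.

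Replicate numbers 1 to 8 in the titles recur in kainate and control. Deviations from group means correlated between same-numbered libraries with r from 0.127 to 0.781 over the 8 pairs, above a limit of 0.1. A further fit therefore took the replicate number as a block. The main fit, which gave the intervals and all values not named as blocked, did not pair the libraries. With the split between replicates 1 to 4 and 5 to 8 removed, r ran from -0.349 to 0.667. No label says that rats with the same number were matched.

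The astrocyte genes and the other lists were chosen with earlier results of these data known. All members are accounted for. Values by library are given for the 4 smallest p, for Gfap, Aqp4, Slc1a3 and Vim, and for the 3 largest differences between the replicate sets. The 3 genes with the smallest p are named from each other list, and the 5 closest to Gfap. A gene that this rule names is not reported here. Il6, Itgam, Pecam1, Ttr, Foxj1 and Col1a2 of those lists had no row and were not analysed here. Clu and the further members named for a set difference or a same-numbered extreme were picked after their values were seen.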

Additional observations from a re-analysis of the deposited data

Results flagged for a closer look

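For each astrocyte gene and isoform, the gap between the most extreme of 8 libraries of a group and its nearest neighbour was divided by the range of that group and compared with Dixon's 95% limit. Of 128 groups tested, 12 (9.38%) exceeded it, beside 8.18% of groups over all genes and isoforms tested in the same way. Chance gives about 1 in 20, and values of a gene and its leading isoform are not independent.

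At the gene level, kainate replicate 1 was the lowest kainate library for Emp1, at 9.38 against 9.56 for the next (ratio of gap to range 0.569). Control replicate 2 was the highest control library for S100b, at 15.04 against 14.92 (0.663), and control replicate 1 for Cp, at 8.82 against 8.71 (0.695).

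At the isoform level, kainate replicate 1 was the lowest kainate library for the leading isoforms of Emp1 (0.611) and C3 (0.530). Kainate replicate 7 was the highest for Aqp4 ENSRNOT00000090320 (0.537), and kainate replicate 2 for S1pr3 ENSRNOT00000019473 (0.555). Control replicate 1 was the highest control library for the leading isoforms of Cp (0.680) and Aqp4 (0.562), and control replicate 8 was the lowest for Aldh1l1 ENSRNOT00000075042 (0.530).

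The widest gap belonged to the weak C3 isoform ENSRNOT00000075494. Kainate replicate 1 had a log2 value of 3.62 against at most 3.09 in the other kainate libraries (0.982), and control replicate 1 had 3.30 against at most 3.09 in the other control libraries (0.982). The same replicate number thus stood out in both groups.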

How the results depend on the processing

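At an adjusted p under 0.05, the count of genes, isoforms and astrocyte genes differing between kainate and control was 0 under every alternative run: the replicate block, a term for the replicate sets, isoforms with a mean normalized count of at least 20, median centring, 1 added before the log2, neither trend nor robust fitting, either replicate set alone and each library left out. Genes with differing isoform usage numbered 0, except 5 in replicates 5 to 8 alone and 0 to 1 with 1 library left out (1 without control replicate 1). Usage was not run with neither trend nor robust fitting. The test of the kainate difference between the sets called 0 genes, and 0 to 1 with 1 library left out (1 without kainate replicate 5). DESeq2 was not run because the table holds no counts per animal.

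Astrocyte genes with an unadjusted p under 0.05 numbered 0 without the replicate block, 3 with it, 2 with a term for the sets, 1 in replicates 5 to 8 alone and 0 to 2 with 1 library left out. The block changed no call at an adjusted p under 0.05. No astrocyte gene's difference moved by more than 1 SD, but several runs could not have moved it that far. The block, the set term and the fit with neither trend nor robust fitting leave a difference unchanged in this balanced design. Leaving out 1 of 8 libraries of a group cannot move it by 1 SD. Of the 32, 17 kept the sign of their difference under every alternative, among them Gfap, S100b, Vim, C3, Slc4a4, Gja1, Mlc1 and Tgm1. Median centring turned the sign of Glul, Aqp4 and Cxcl10, and leaving out 1 library turned that of 14 genes, among them Slc1a3, Aqp4 and Lcn2. Single libraries still moved several of these differences by over 1.5 times. Without control replicate 7 the Slc4a4 difference was 0.053, and without control replicate 1 it was 0.17. With 1 library left out, that of Gfap ran from -0.10 (without kainate replicate 5) to -0.03 (without kainate replicate 3), that of Vim from -0.14 (kainate replicate 7) to -0.07 (kainate replicate 3), that of C3 from -0.14 (kainate replicate 5) to -0.06 (kainate replicate 1), that of Mlc1 from -0.06 (control replicate 4) to -0.0002 (kainate replicate 3), that of Gja1 from 0.02 (control replicate 5) to 0.07 (control replicate 1) and that of Tgm1 from 0.01 (kainate replicate 1) to 0.03 (control replicate 2). Compressed values limit what can be said of the weak genes, and the unknown depth limits it further.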
